A study of Mus musculus with 2 samples.

Results

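Splicing and RNA level of 10 genes of the apoptosis and survival pathways were examined in N2A cells, a mouse neuroblastoma line, after depletion of the splicing repressor PTBP1. The genes were Bak1, Bcl2l1, Bcl2l11, Mcl1, Casp2, Casp9, Fas, Apaf1, Diablo and Malt1, 10 of the 37310 genes that the GENCODE annotation places on mm9. Events were selected on their read numbers in these same libraries, and the genes were listed with earlier splicing results of the libraries known, so PSI values and RNA levels are given as a description and nothing is supported with them. Within each gene, every SpliceTrap trio on the gene's strand was taken. A trio is a middle exon or segment with its 2 neighbours, and PSI (percent spliced in) is the percent of transcripts that contain the middle. The 10 genes held 13 events of the alternative classes (cassette exon, alternative acceptor, alternative donor, retained intron) out of 18470 in the table, and 12 of them had at least 20 reads in each library, as did 12834 of all events.

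One library was made from cells that received shControl and 1 from cells that received shptbp1, both N2A cells transfected with Lipofectamine and collected on day 3, so both carry an shRNA vector and the transfection. The labels name no allele, clone or selection of transfected cells. There is no replicate check of any value below, and no test between the conditions was possible. The deposited junction reads summed to 74382387 in the shControl library and 58295142 in the shptbp1 library over 406367 distinct junctions. Intervals are 95% Wilson intervals for a share and 95% Newcombe intervals for a difference. They cover counting error only and not variation between cultures or libraries. They also treat reads as independent, which sequenced fragments need not be, so they can be too narrow.

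Ptbp1 itself had 37942 junction reads in the shControl library and 10036 in the shptbp1 library, a log2 ratio of -1.57, which checks the labels. Its paralog Ptbp2, whose RNA PTBP1 is known to destabilise through exon skipping, had 5296 and 9980, a log2 ratio of 1.27. Of 12 neuroblastoma and neuronal markers, 10 passed the read minimum, with a summed depth per base of 12800 and 11100 in the shControl and shptbp1 libraries, while Nefl stayed under 1. Fibroblast markers summed to 1.28 and 2.23 with Lum at 0, epithelial markers to 0.852 and 0.98, and immune markers to 0 and 0.0357.

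Intrinsic apoptosis is decided at the mitochondrial outer membrane. The effectors BAK and BAX form pores there, BCL-XL and MCL-1 hold them back, and BH3-only proteins such as BIM release them. Cytochrome c that leaves the mitochondrion assembles APAF1 into the apoptosome, which activates caspase-9, and SMAC, encoded by Diablo, frees caspases from inhibitors. Many of these genes make splice forms of opposing function, and neurons restrict the pathway as they mature, a period in which PTBP1 falls and PTBP2 takes its place.

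Of the 12 events, PSI rose by 5 points or more in 2 (Bak1 and Malt1), fell by 5 points or more in 4 (Bcl2l1, Apaf1 and both of a pair of overlapping Bcl2l11 events) and stayed within 5 points in 6. Over all alternative events past the same minimum, 14.4% rose and 12.1% fell by 5 points or more. The rule used this contrast, so no more is read from the count. The median change was 0 points among the member events and 0 among all alternative events. Both rises had a junction-read interval above 0, and 5.8% of all events had such a rise. For Malt1 the inclusion side of this interval rested on the right junction, with 9 reads in the shControl library and 21 in the shptbp1 library. That junction is shared with a longer exon, and the left junction had 2 and 1 reads, so a rise of the Malt1 exon itself is not shown. None of the 4 falls had an interval below 0, and 4.1% of all events had such a fall, so these falls were not distinguishable from counting error.

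**Figure D1:**
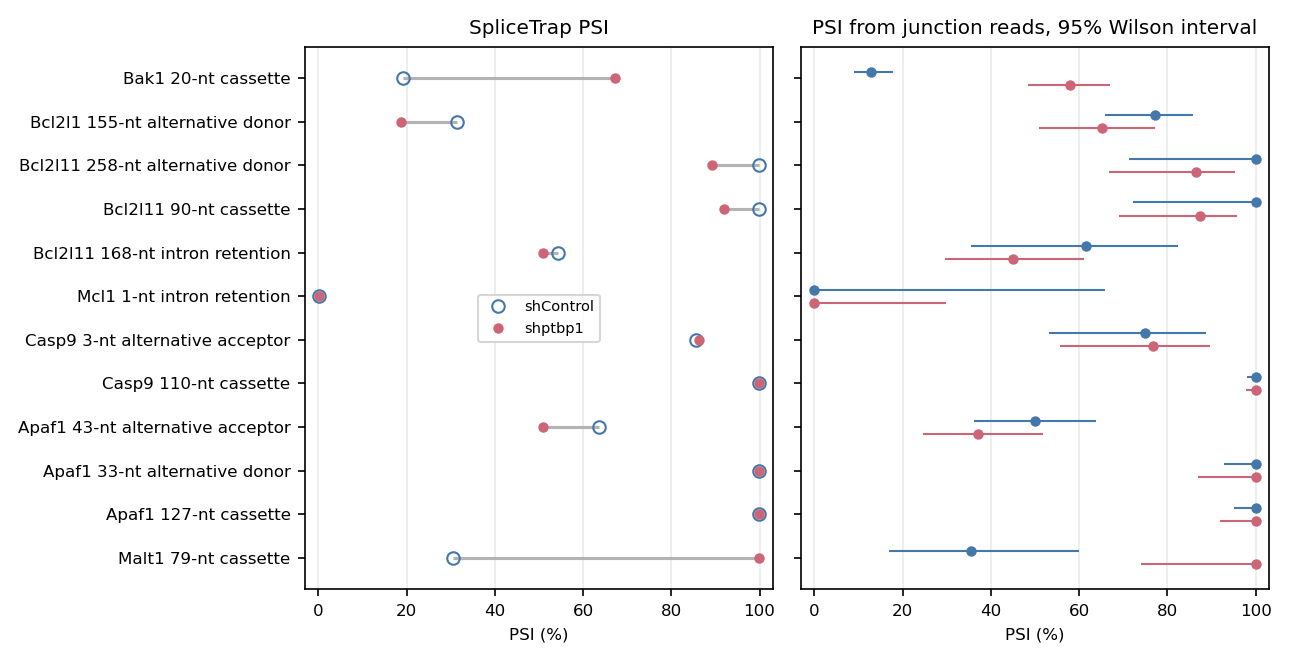
PSI of the 12 member events in the shControl (blue) and shptbp1 (red) libraries, from SpliceTrap (left, 1 value per library) and from junction reads (right, bars are 95% Wilson intervals). The Bak1 exon moved from 19.2 to 67.3 and the Malt1 exon from 30.6 to 99.9 in the left panel, and in the right panel the intervals of the 2 libraries are apart for these events and overlap for the other 10.

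Bak1 encodes the pore-forming effector BAK. Its cassette exon of 20 nucleotides lies at chr17:27158608-27158627 on the minus strand of mm9, within the coding region, and is not a multiple of 3 nucleotides long. The sequence is shown because the PSI of this exon rose and each of its junctions had reads in both libraries. First comes the exon in capitals with 10 intronic bases on each side. Then come the 100 bases of intron before it (chr17:27158628-27158727) with each TCTT and CTCT in capitals. PTBP1 is known to bind these motifs as UCUU and CUCU.
Bak1 exon: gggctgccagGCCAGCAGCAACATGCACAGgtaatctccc
Bak1 upstream intron: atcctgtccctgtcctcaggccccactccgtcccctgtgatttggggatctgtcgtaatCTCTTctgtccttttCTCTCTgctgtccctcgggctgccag

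PSI of the Bak1 exon was 19.2 in the shControl library and 67.3 in the shptbp1 library, a rise of 48.1 points. The trio held 604 and 392 reads. Of 6564 cassette events past the minimum, 35 rose by as much or more, this exon included. The junction from the exon to the next exon had 47 reads in the shControl library and 99 in the shptbp1 library, the junction from the previous exon had 11 and 25, and the skipping junction had 199 and 45. Inclusion reads therefore went up while skipping reads went down. Relative to all junction reads of the library, the mean inclusion junction changed 2.73-fold (1.76 to 4.24) and the skipping junction 0.289-fold (0.209 to 0.399). Junction PSI was 12.7% (9.0 to 17.7) and 57.9% (48.5 to 66.9), a difference of 45.2 points (34.5 to 54.9).

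Coverage and assembly gave the same direction for the Bak1 exon. Coverage of the 20 nucleotides was 355 reads per 100 nucleotides in the shControl library and 705 in the shptbp1 library, while the previous exon had 254 and 113 and the next exon 234 and 142. This unit runs high in segments much shorter than a read, such as a 3-nucleotide Casp9 segment at 1000 and 1200. The exon is therefore compared between libraries and not with its neighbours. Cufflinks assembled 1 transcript with the exon, of 7 exons, in each library, at a depth per base of 47.9 and 69.4, beside the RefSeq form without it at 134 and 45.8. The form with the exon thus made up 26.3% of this depth in the shControl library and 60.2% in the shptbp1 library. In GENCODE the exon belongs to Bak1-002, which is annotated as a nonsense-mediated decay transcript. Its annotated coding sequence is 453 nucleotides long and ends 92 nucleotides before the last exon junction, whereas that of Bak1-001, which lacks the exon, is 627 nucleotides long and ends in the last exon. The remaining 4 Bak1 exons, of the constitutive class, had PSI between 99.4 and 99.9 in both libraries.

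**Figure D2:**
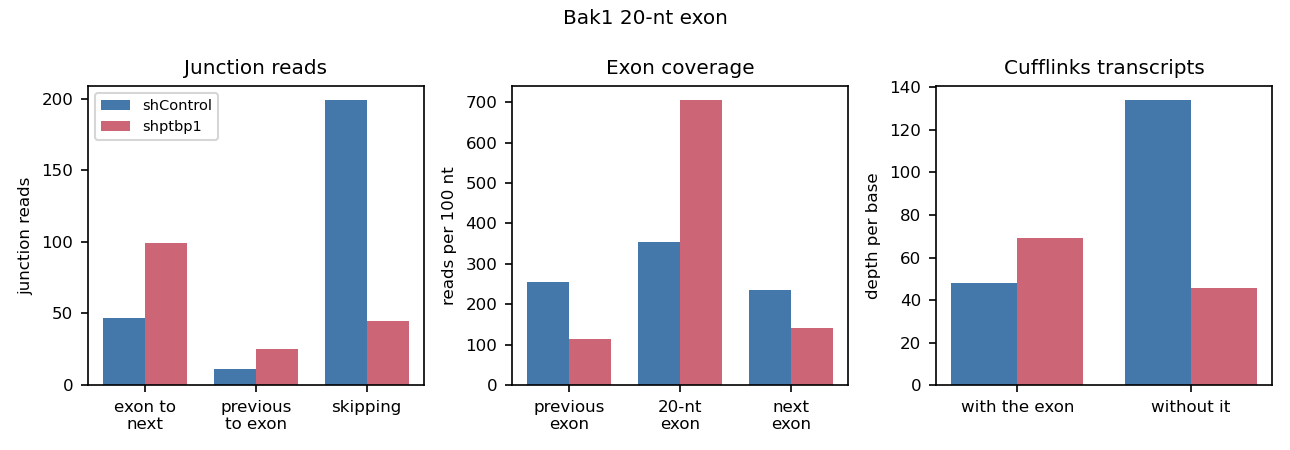
Bak1 20-nt exon in the shControl (blue) and shptbp1 (red) libraries, as junction reads (left), coverage in reads per 100 nucleotides of the exon and its neighbours (middle) and depth per base of the Cufflinks transcripts with and without it (right), 1 library each and no error bars. Skipping reads dropped from 199 to 45 while coverage of the exon rose from 355 to 705 and that of both neighbours dropped.

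Bcl2l1 encodes BCL-X, whose long form protects cells and whose short form promotes death. The choice between those forms lies in a coding exon and had no trio in the table. The event measured was an alternative donor of a 5′ untranslated exon, a segment of 155 nucleotides at chr2:152656122-152656276 on the minus strand, present in Bcl2l1-002 and Bcl2l1-003 and absent from Bcl2l1-007 and Bcl2l1-202. PSI was 31.5 in the shControl library and 18.7 in the shptbp1 library and fell by 12.8 points, on 1651 and 1619 reads. The spliced junction of the long form had 87 and 55 reads, the boundary read without splicing 15 and 5, and the junction of the short form 15 and 16. Junction PSI was much higher in level, 77.3% (65.8 to 85.7) and 65.2% (50.8 to 77.3), with a difference of -12.1 points (-28.8 to 4.6). With the spliced junctions alone it was 85.3% and 77.5%, a difference of -7.83 points (-20.1 to 3.7). The level of this event thus depended on the measure, while the direction was the same in each. Coverage of the segment was 69 reads per 100 nucleotides in the shControl library and 38.7 in the shptbp1 library, and that of the coding exon that follows 241 and 239. The assembled transcript that uses the long form began with an exon of 854 nucleotides in the shControl library and of 97 nucleotides in the shptbp1 library. The coding exon of 676 nucleotides had PSI 99.9 in both libraries.

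Mcl1 encodes MCL-1, the short-lived anti-apoptotic protein, and skipping of its middle exon is known to give a pro-apoptotic short form. That exon, 248 nucleotides at chr3:95463684-95463931, had no skipping read in either library beside 1075 and 1171 inclusion reads in the shControl library and 780 and 854 in the shptbp1 library, and PSI was 99.9 in both. Skipping of it was not detectable at this depth. The only alternative event listed for Mcl1 was a retained intron of 1 nucleotide at chr3:95462914, shown in capitals within its surroundings because it is not a possible intron.
Mcl1 gap: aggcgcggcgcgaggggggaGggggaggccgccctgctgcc
PSI of this event was 0.1 in both libraries, with 2 reads across the gap in the shControl library and 9 in the shptbp1 library. The annotated transcript Mcl1-201 has the same gap, whereas the RefSeq and assembled transcripts in the Cufflinks files run through it. The adjoining exon of 496 nucleotides, of the constitutive class, was listed at PSI 51.8 in the shControl library and 60.8 in the shptbp1 library with no skipping read in either. Its left boundary is that gap, with 2 and 10 reads, and its right junction had 1035 and 745, so no read skipped the exon itself.

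Bcl2l11 encodes BIM, a BH3-only protein made in an extra-long, a long and a short form. The forms differ by 2 neighbouring coding segments at chr2:127954493-127954750 on the plus strand, one of 168 and one of 90 nucleotides, both multiples of 3. The extra-long form keeps both, the long form splices out the 168 nucleotides as an intron, and the short form lacks both. The sequence of the 90-nucleotide exon (chr2:127954661-127954750) is shown with the last 100 bases of the 168-nucleotide segment before it (chr2:127954561-127954660), in which TCTT and CTCT are in capitals, because that stretch is exon in one form and intron in another.
Bcl2l11 segment before the exon: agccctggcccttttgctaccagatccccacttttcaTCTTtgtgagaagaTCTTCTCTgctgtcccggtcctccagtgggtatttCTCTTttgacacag
Bcl2l11 90-nt exon: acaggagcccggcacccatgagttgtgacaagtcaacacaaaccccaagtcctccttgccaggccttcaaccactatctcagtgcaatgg

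All 3 Bcl2l11 events were read thinly. The 168-nucleotide retained segment had PSI 54.4 in the shControl library and 50.8 in the shptbp1 library, on 36 and 77 reads. Its 2 boundaries had 4 and 12 reads in the shControl library and 13 and 18 in the shptbp1 library, and the junction that splices it out had 5 and 19. Both forms had more reads in the shptbp1 library. Relative to all junction reads, the mean boundary changed 2.47-fold (1.05 to 5.8) and the spliced junction 4.85-fold (1.81 to 13). The junction PSI was 61.5% (35.5 to 82.3) and 44.9% (29.7 to 61.2), a difference of -16.6 points (-42.4 to 14.1).

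The donor event that takes in both Bcl2l11 segments had PSI 99.9 and 89.2 in the shControl and shptbp1 libraries, and the 90-nucleotide cassette had 99.9 and 92.0. These events share the same skipping junction, which had 0 reads in the shControl library and 3 in the shptbp1 library, so they are not separate observations. Junction PSI of the cassette was 100% (72.2 to 100) and 87.5% (69.0 to 95.7), a difference of -12.5 points (-31.0 to 16.4). The Cufflinks transcripts did not give the same direction. The extra-long and long forms made up 89.1% of the depth of all forms in the shControl library and 91.6% in the shptbp1 library, and the long form 76.6% and 82.4% of the depth of the long and short forms. The cassette, with 30 and 58 reads, had the fewest reads among the events inside the minimum, and a 33-nucleotide Malt1 exon with 10 and 10 was the one outside it. RefSeq depth per base was 10.6 and 12.5 for the extra-long form, 7.02 and 7.58 for the long form and 2.15 and 2.93 for the short form.

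Apaf1 encodes the scaffold of the apoptosome. Its alternative acceptor of 43 nucleotides lies at chr10:90542834-90542876 on the minus strand, in the 5′ untranslated part of an exon, and is used by Apaf1-001 and Apaf1-004. PSI was 63.7 in the shControl library and 50.9 in the shptbp1 library and fell by 12.8 points, on 200 and 173 reads. The boundary read without splicing had 37 and 26 reads, the spliced junction of the longer form 9 and 7, and that of the shorter form 23 and 28. Junction PSI was 50% (36.1 to 63.9) and 37.1% (24.5 to 51.8), a difference of -12.9 points (-31.7 to 7.28). With spliced junctions alone it was 28.1% and 20%, but a neighbouring trio listed 32 and 20 reads on the same junction of the longer form. With the highest count any trio gave for each junction it was 58.2% (45.0 to 70.3) and 40.8% (28.2 to 54.8), a difference of -17.4 points (-34.8 to 1.79). The share in the Cufflinks transcripts was 52.8% and 50.2%. Each measure was lower in the shptbp1 library and each interval took in 0. The other 2 events, a 33-nucleotide alternative donor at chr10:90542192-90542224 that Apaf1-003 lacks and a 127-nucleotide cassette at chr10:90512103-90512229, had PSI 99.9 in both libraries and no skipping read in their own trios, with 202 and 120 trio reads for the donor and 244 and 152 for the cassette. Other trios listed the junction of the short donor with 3 reads in the shControl library and 0 in the shptbp1 library, beside 67 and 41 for the long donor, so the short donor was read.

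Casp9 encodes the initiator caspase that the apoptosome activates. Its alternative acceptor adds 3 coding nucleotides at chr4:141352350-141352352 on the plus strand, a tandem acceptor in which either of a pair of neighbouring AG dinucleotides can end the intron. The intron's last 24 bases are shown with the 3 added nucleotides in capitals and 6 bases of exon after them, because both AG dinucleotides can be seen there.
Casp9 tandem acceptor: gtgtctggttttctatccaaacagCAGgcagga
The form with these nucleotides, in Casp9-001, Casp9-002 and Casp9-003, had PSI 85.7 in the shControl library and 86.2 in the shptbp1 library. Its junction had 30 and 33 reads and that of the form in Casp9-004 had 5 and 5, a share of 85.7% (70.6 to 93.7) and 86.8% (72.7 to 94.2) and a difference of 1.13 points (-15.2 to 17.9). Both tandem sites were thus read in both libraries. The cassette exon of 110 nucleotides at chr4:141368122-141368231, which Casp9-003 lacks, had PSI 99.9 in both libraries, with 0 skipping reads in its own trio beside a mean of 185 and 183 inclusion reads. The trio of the exon before it, however, listed the same skipping junction with 7 reads in the shControl library and 11 in the shptbp1 library. With the highest count of each junction, inclusion was 96.4% (92.7 to 98.2) and 94.4% (90.3 to 96.8), a difference of -1.97 points (-6.52 to 2.44), so the exon was skipped in a small share of both libraries.

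Casp2 and Diablo had no event of the alternative classes. Casp2, an initiator caspase, had 9 constitutive-class exons past the minimum. The lowest was an exon of 91 nucleotides at chr6:42226694-42226784 on the plus strand, coding and not a multiple of 3, with PSI 96.2 in the shControl library and 95.7 in the shptbp1 library and 10 and 8 skipping reads. Its junction PSI was 95.3% and 93.9%, a difference of -1.33 points (-7.18 to 3.45), and no GENCODE transcript skips it. Diablo, which encodes the caspase-releasing SMAC, had 5 such exons with PSI between 98.3 and 99.9. Each had at least 1 skipping read, with the most at the 127-nucleotide exon at chr5:123973264-123973390, 8 in the shControl library and 17 in the shptbp1 library, where PSI was 99.0 and 98.3 and junction PSI differed by -1.15 points (-2.38 to -0.0575).

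Fas encodes the CD95 death receptor and could not be read in these cells. Its 7 exons had at most 9 trio reads in either library, so that none passed the minimum and no PSI is given. Its RefSeq forms held about 10.9 reads' worth of bases in the shControl library and 6.85 in the shptbp1 library.

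Malt1 encodes the paracaspase of the CARD-BCL10-MALT1 complex, which drives NF-kB survival signalling. Its 79-nucleotide cassette at chr18:65616411-65616489 on the plus strand has no exon in GENCODE. PSI was 30.6 in the shControl library and 99.9 in the shptbp1 library, a rise of 69.3 points on 55 and 46 reads. Among 6564 cassette events, 6 rose by as much or more, this event included. The left inclusion junction had 2 reads in the shControl library and 1 in the shptbp1 library, the right junction 9 and 21, and the skipping junction 10 and 0. Junction PSI was 35.5% (16.8 to 59.9) and 100% (74.1 to 100), a difference of 64.5 points (28.9 to 83.2). The inclusion side of the rise thus rested on the right junction, and SpliceTrap gave the trio no class in the shptbp1 library, where the upstream exon of 30 nucleotides had a coverage of 3.33 reads per 100 nucleotides against 40 in the shControl library.

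The right Malt1 junction was not particular to the 79-nucleotide exon. In the shptbp1 library Cufflinks assembled a transcript that begins with an exon of 1251 nucleotides ending at the same donor, at a depth per base of 13.6. No assembled transcript in either library held both inclusion junctions. In the shControl library the assembled exons over the site were one of 82 nucleotides, at a depth of 3.45, and an unspliced one of 2160 nucleotides, at 5.99. The junctions of the annotated exons around the site were read less in the shptbp1 library. The left junction of the 30-nucleotide exon had 4 reads in the shControl library and 0 in the shptbp1 library. Its right junction, at 10 and 0, and the left junction of the 204-nucleotide exon, at 11 and 0, are the same intron. That intron is also the skipping junction of the 79-nucleotide exon, so these listings are not separate observations. Spliced inclusion of the 79-nucleotide exon and use of the longer exon cannot be told apart from the right junction of the 79-nucleotide exon. The 33-nucleotide exon at chr18:65609229-65609261, known to separate the MALT1A and MALT1B proteins, had 10 reads on its left junction and 0 on its right in each library. Among the constitutive-class Malt1 exons, the 167-nucleotide exon had PSI 98.9 in the shControl library and 92.9 in the shptbp1 library and fell by 6.0 points, with 1 and 2 skipping reads.

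Over the 10 genes, 78 middle exons were of the constitutive class and 70 passed the minimum. PSI moved by 5 points or more in 2 of them, the Mcl1 496-nucleotide and the Malt1 167-nucleotide exons named above, beside 2.91% of all constitutive-class exons. PSI was above 95 in both libraries in 67 of the 70, and 17 had at least 1 skipping read. By listed PSI, most exons of the constitutive class were thus close to full inclusion in both libraries. The class overlaps the alternative events. It also lists the Bcl2l11 90-nucleotide exon, and the Apaf1 exon of the alternative acceptor in forms of 202 and 245 nucleotides. Listed PSI is a corrected ratio and can be 99.9 without reads on the exon. The Malt1 30-nucleotide exon was at 99.9 in the shptbp1 library with 0 coverage, 0 junction reads and 0.1 before correction. The Malt1 204-nucleotide exon was also at 99.9 there but at 76.8 before correction. Full inclusion in the shptbp1 library is therefore not shown for these Malt1 exons.

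The intron before the cassette exons and acceptors was read for pyrimidines on the transcribed strand. Over the 250 nucleotides before the exon, or the part of them that is intron, C and T made up 56.0% before the Bak1 exon, 64.4% before the Malt1 79-nucleotide exon, 60.7% before the Bcl2l11 90-nucleotide exon, 57.2% before the Apaf1 127-nucleotide exon and 52.8% before the Casp9 110-nucleotide exon. The median of 6557 cassette events was 53.6%, with quartiles of 49.6% and 57.4%. TCTT and CTCT, counted on this strand with overlaps allowed, occurred 1 and 3 times for Bak1, 6 and 3 times for Malt1, 3 and 2 times for Bcl2l11, 3 and 2 times for Apaf1 and 2 and 4 times for Casp9. TCTT was present in 84.1% of all cassette windows and CTCT in 78.6%, so their presence is common. At least 6 TCTT, as before the Malt1 exon, were found in 4.33% of cassette windows, and the pyrimidine content before the Bak1 exon was reached by 34.0% of them. In the nearest 100 nucleotides the Bak1 and Malt1 windows each held 71.0% pyrimidines, a value that 5.72% of cassette windows reached, and the Bak1 window held all 4 of its motif matches, which stand in capitals in the sequence above. The Casp9 exon, whose PSI stayed within 5 points, had 4 CTCT there, a number that 4.97% of cassette windows reached. The Casp9 and Apaf1 acceptors had 42.8% and 56.8% over 250 nucleotides, beside a median of 52.4% over 3296 acceptor windows. A match is a string of letters, and binding was not measured in these files.

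RNA levels of the 10 genes were compared between the libraries as the coverage of the RefSeq isoforms multiplied by their length and scaled to the library total. Over the 11626 genes past the minimum the median log2 ratio was 0.13, so a gene near that value stood at the middle of the transcriptome. Of the 9 member genes past the minimum, Diablo rose by 1.5-fold or more and Bak1 and Mcl1 fell, beside 21.9% and 9.01% of all genes. This measure leaves out transcripts that Cufflinks assembled beside RefSeq, which held 39.6% of all bases in the shControl library and 41.8% in the shptbp1 library. The other measures, which take all transcripts of the locus or the junction reads of constitutive-class trios, are therefore given with it. The RNA is of whole cultures. A change in the share of cells that express a gene and a change per cell therefore cannot be told apart by any measure. The medians of the whole-locus and junction ratios over all genes were 0.11 and 0.16.

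Bak1 was lower in the shptbp1 library by each measure, but its size depended on the form counted. The RefSeq log2 ratio of -1.19 covers the form without the 20-nucleotide exon alone. The whole locus had a depth per base of 182 and 115 and a log2 ratio of -0.37, and junction reads of 1332 and 764 gave -0.45 (-0.58 to -0.32). These junction reads include the skipping junction of the 20-nucleotide exon, at 213 and 64 reads, so this ratio is not separate from the change in splicing. Mcl1 had a RefSeq log2 ratio of -0.93, with depth per base of 1250 and 524, but a second assembled form of depth 477.5 appeared in the shptbp1 library alone. Its whole-locus ratio was -0.06 and its junction ratio, from 2248 and 1644 reads, -0.10 (-0.19 to -0.01). Diablo had a RefSeq ratio of 0.61 with depth per base of 640 and 770 and a junction ratio of 0.24 (0.19 to 0.30). Its Cufflinks locus also held Vps33a in both libraries, and its own transcripts alone gave a ratio of 0.12. Neither Mcl1 nor Diablo passed 1.5-fold once the assembled forms were counted.

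Bcl2l11 was the member whose RNA rose by 1.5-fold or more by 2 of the 3 measures. Its junction reads were 54 in the shControl library and 107 in the shptbp1 library, a log2 ratio of 1.34 (0.87 to 1.81). They include 5 and 20 reads on the junction that splices out the 168-nucleotide segment, so this ratio is not separate from splicing. The whole-locus ratio was 1.11. The RefSeq ratio was 0.57 (-1.3 to 2.27 from the FPKM confidence limits), below the limit of 1.5-fold. Apaf1 had ratios of -0.49, -0.39 and -0.33 (-0.43 to -0.24) by RefSeq, whole locus and 2371 and 1474 junction reads. Bcl2l1 had 0.23, 0.23 and 0.51 (0.30 to 0.73), Casp9 0.20, 0.24 and 0.38 (0.24 to 0.52), Casp2 -0.16, -0.21 and -0.08 (-0.18 to 0.01), and Malt1 -0.24, 0.13 and -0.19 (-0.40 to 0.02). These 5 genes stayed within 1.5-fold by each of these measures, but Apaf1 passed it with -0.62 when scaled to the median gene and -0.73 by FPKM. By junction reads, 17.0% of 9183 genes rose and 1.45% fell by 1.5-fold or more.

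**Figure D3:**
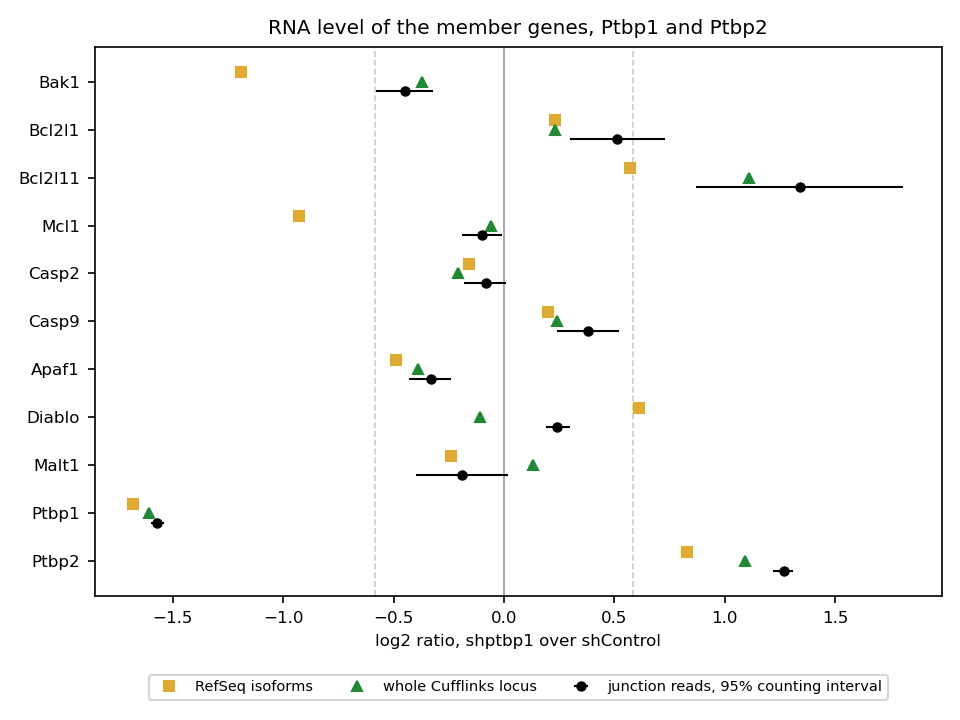
Log2 ratio of RNA level, shptbp1 over shControl, of the 9 member genes past the read minimum and of Ptbp1 and Ptbp2, by RefSeq isoforms (squares), whole Cufflinks locus (triangles) and junction reads (circles with 95% counting intervals), with dashed lines at 1.5-fold. The squares of Bak1 (-1.19), Mcl1 (-0.93) and Diablo (0.61) stand apart from the other measures, the triangle of Diablo includes Vps33a, and Bcl2l11 reaches 1.34 by junction reads.

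The wider pathway was described by 8 lists with 63 genes, of which 44 passed the minimum. By RefSeq isoforms 6 rose and 6 fell by 1.5-fold or more, beside 21.9% and 9.01% of all genes. In 11 of the 44 the Cufflinks locus held another gene in at least 1 library, so their whole-locus values are not given as values of the gene. Of the 33 others, 5 rose and 1 fell by whole loci, beside 18.5% and 5.37% of all genes, shared loci included. By junction reads, available for 41 of the genes with at least 40 reads over both libraries, 7 rose and 1 fell, beside 17.0% and 1.45% of all genes, with a median log2 ratio of 0.17 beside 0.16 over all genes.

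The BH3-only list held most of the genes that rose by junction reads. BH3-only proteins are the sensors that set off the mitochondrial step. Of the 5 with enough reads, 4 rose, beside 17.0% of all genes: Bcl2l11 (1.34), Bbc3, which encodes PUMA (60 and 115 reads, 1.29, 0.84 to 1.74), Bad (1175 and 1466 reads, 0.67, 0.56 to 0.78) and Bmf (75 and 91 reads, 0.63, 0.19 to 1.07). Bid had 544 and 403 reads and a ratio of -0.08. The list's median log2 ratio was 0.67. Bad had a RefSeq ratio of 1.97 and a whole-locus ratio of 0.43, Bbc3 had 0.56 and 0.77, and Bmf 0.30 and 0.65, so that 1 of the 5 rose by RefSeq isoforms and 3 by whole loci, beside 21.9% and 18.5% of all genes.

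The effectors, anti-apoptotic proteins and caspases stayed within 1.5-fold by junction reads. Bax and Bok, the other pore-formers, had ratios of 0.15 and 0.03. Bcl2l2 had 0.32, and Bcl2, with a RefSeq ratio of 0.57 and a whole-locus ratio of 0.69, had no junction value. Casp8, the initiator of the death receptor route, had -0.41 (-0.62 to -0.19), and 0.24 by RefSeq isoforms.

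Among the inhibitors of apoptosis, Naip2 rose by both measures that separate genes, with a junction ratio of 0.86 (0.71 to 1.01) and a RefSeq ratio of 0.87. Naip1, with 2 and 4 junction reads, had a RefSeq ratio of 1.14. The Naip genes are close copies in 1 Cufflinks locus, so how reads were divided among them is uncertain. Birc3 had 44 and 57 junction reads and a ratio of 0.73 (0.16 to 1.29) but a RefSeq ratio of -1.40, so its direction depended on the measure. Xiap and Birc6 had RefSeq ratios of -0.73 and -0.68 and junction ratios of -0.24 and -0.06, and the RefSeq form of Birc2 had a depth of 35 in the shControl library and was listed at 0 in the shptbp1 library while its junction ratio was 0.28.

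Of the death receptor adaptors, Ripk1, a kinase at the branch of survival and death signalling, fell by each measure. It had 1331 and 577 junction reads and a log2 ratio of -0.85 (-1.0 to -0.71), with -1.2 by RefSeq isoforms and -0.87 by whole locus. Cflar, the caspase-8 inhibitor FLIP, had a RefSeq ratio of 1.40 but a junction ratio of 0.17 (-0.08 to 0.43). In the Malt1 list, the scaffold gene Card10 rose by each measure, with 290 and 567 junction reads, a ratio of 1.32 (1.11 to 1.52) and RefSeq and whole-locus ratios of 0.73 and 0.92. Bcl10, the partner of Malt1, had 0.10 by junction reads.

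**Figure D4:**
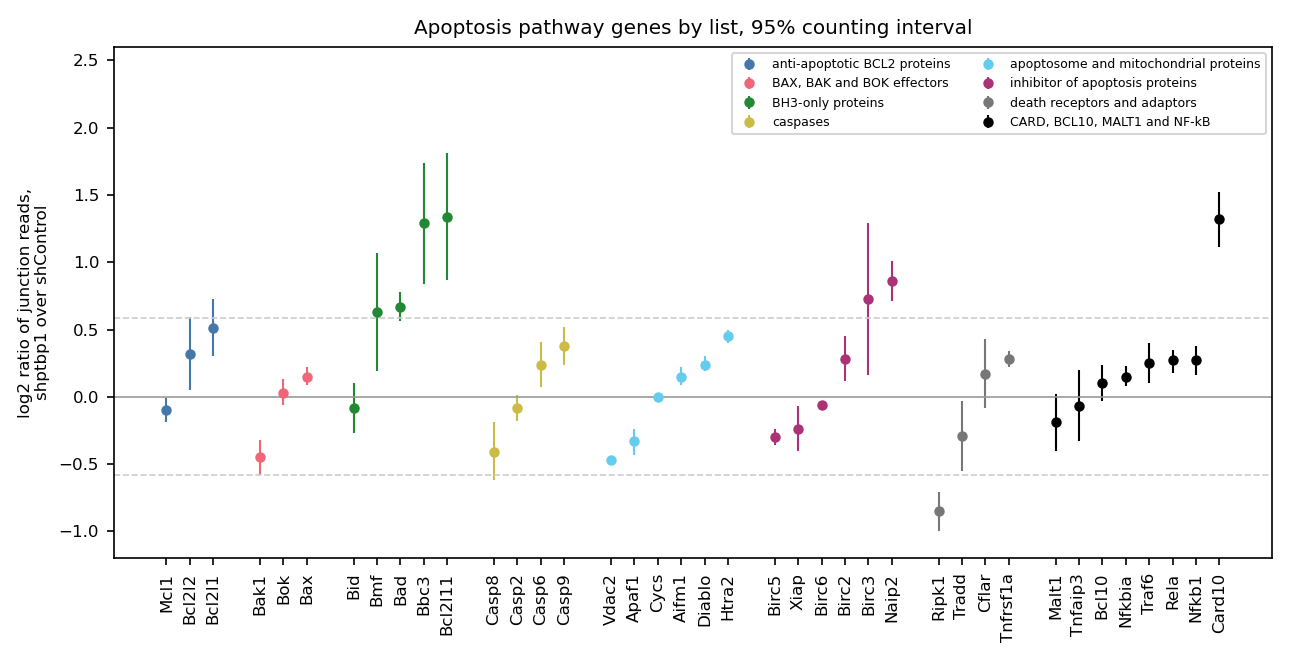
Log2 ratio of junction reads, shptbp1 over shControl, of pathway genes with at least 40 junction reads, ordered within each of the 8 lists, with 95% counting intervals and dashed lines at 1.5-fold. Bcl2l11 (1.34), Bbc3 (1.29), Card10 (1.32) and Naip2 (0.86) lie highest and Ripk1 (-0.85) lowest.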

How the data were processed

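RNA of both libraries was made into strand-specific libraries and read as paired ends of 100 bases. Per the labels, the processing notes name CASAVA, TopHat, Cufflinks and the mm9 build, without versions. The SpliceTrap files that the authors deposited give, for a trio, the inclusion ratio as a fraction (raw and corrected), an unscaled count for each junction, and exon coverage as reads per 100 nucleotides. The deposited Cufflinks files give FPKM and per-base coverage for each isoform, with exon positions of RefSeq and separately assembled transcripts. Gene level tables were not used.

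PSI was the corrected ratio multiplied by 100. Where an event had several trios, the one with the most reads was kept. Junction PSI was the mean of the inclusion junctions divided by this mean plus the skipping junction. RefSeq identifiers were matched to symbols for 97.5% of RefSeq isoforms. Sequence came from NCBIM37, which is mm9. The members and lists were chosen with earlier results of these data known. All members were named, with full values for events that moved by 5 points or more and the best-read event of each gene. Ptbp1, Ptbp2 and pathway genes past 1.5-fold were named by rule, and other pathway genes were chosen after their values were seen. Some listed genes are counted but not reported here by name or drawn. Interval code was tested on simulated binomial reads, the model that the formulas assume. That test checks the code and cannot show how well the intervals hold for these reads. Scripts ran in Python 3.11.15 with pysam 0.24.0, pandas 2.3.3, NumPy 2.4.6 and matplotlib 3.10.9, and the genome was indexed with samtools 1.23.1.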

Additional observations from a re-analysis of the deposited data

How the results depend on the processing

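No paired analysis was possible because each condition had 1 library, and no library could be left out for the same reason. Of 20 counts of member events, 17 stayed within 1.5 times the reported 2 rises and 4 falls. Not all of these could have differed. The 13 member events had 13 trios, so the mean over all trios of an event could only repeat the reported counts. Keeping events with PSI of 5 to 95 in at least 1 library could hardly drop an event that had moved. With a minimum of 50 reads 1 rose and 2 fell of the 8 events left, and by the Cufflinks share of the included form, an alternative chosen after the data were seen, 2 fell. The 2 that rose by this share were Bak1 and the Bcl2l11 90-nucleotide cassette. Bcl2l11 changed direction by this share, by 2.5 points for the donor event and 5.8 for the cassette, and the cause was not tested. With each junction at its highest count over all trios, also chosen later, 2 rose and 4 fell and the Bak1 difference was 38 points. Of the 13 member and pathway counts that changed by more than 1.5 times, a 2-fold limit left 3 pathway genes up and 3 down and 0 members up and 1 down. FPKM with a pseudocount of 1 gave 11 pathway genes down and 0 members up, scaling to the median gave 0 members up, whole loci gave 2 pathway genes and 0 members down, loci with no other gene 1 pathway gene down, the genes' own transcripts 0 members down, and junction reads, gave 1 pathway gene and 0 members down, the last 3 chosen after the data were seen. Scaling to the median and FPKM each gave 3 members down, Apaf1 among them. Diablo went from 0.61 to -0.11 with whole loci, where Vps33a was included, and to 0.12 with its own transcripts. Pyrimidine content before the Bak1 exon was 56.0% over 250 and 71.0% over 100 nucleotides. Depth limits the Bcl2l11, Apaf1 and Malt1 events, whose intervals are wide.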

Other observations

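Several abundant genes of the mitochondrial and inhibitor lists stayed within 1.5-fold by junction reads. Htra2, a mitochondrial serine protease, had 5749 and 6142 junction reads in the shControl and shptbp1 libraries and a log2 ratio of 0.45 (0.40 to 0.50), Vdac2, the outer membrane channel that binds BAK, had 27604 and 15649 reads and a ratio of -0.47 (-0.50 to -0.44), and Birc5, which encodes survivin, had 5413 and 3448 reads and a ratio of -0.30 (-0.36 to -0.24). Cycs, which encodes cytochrome c, had 21313 and 16653 reads and a ratio of 0. The NF-kB subunit genes Nfkb1 and Rela had ratios of 0.27 each.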
